A study of Homo sapiens with 3 samples.

Results

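The regions described here were the strong peaks of CBFB that overlapped no peak of RUNX2 in SAOS2 cells, 856 regions out of 27246 in the CBFB list. SAOS2 is a human osteosarcoma cell line. Chromatin immunoprecipitation followed by sequencing (ChIP-seq) was performed on untreated cells below passage 20 with a custom RUNX2 antibody and with a commercial CBFB antibody, and input DNA without antibody was sequenced beside them. There was 1 library for each antibody, so no value below has a replicate, the peaks are not replicates of each other, and no test between groups was possible. The intervals given are exact 95% binomial (Clopper-Pearson) intervals and cover counting error only. The lists hold no read counts, so the depth behind each peak is unknown.

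The members were chosen by 2 measured values, the CBFB peak score and the absence of a RUNX2 peak, which are therefore a description and not a finding. The peak caller MACS gives each peak a score that rises with the strength of the peak over its background and with sequencing depth. Peaks counted as strong at a score of 278 or more, on chromosomes 1 to 22 and X, and as without RUNX2 when they shared not even 1 bp with any of the 9941 RUNX2 peaks. Of 5449 strong CBFB peaks, 856 met the rule, which is 15.7%, and 4593 overlapped a RUNX2 peak. Among weaker CBFB peaks, 17141 of 21741 had no RUNX2 peak, which is 78.8%. The share of the strong peaks followed from the score limit and nothing is read from it. Since the RUNX2 list is the shorter one, a RUNX2 site too weak to be called and a true lack of RUNX2 cannot be told apart. Just inside the limit lay peaks near NEK6 (score 278.04), at OMD within CENPP (278.09) and in SRD5A3 (278.11). Just outside lay peaks near RPL7P35 (277.95), at SPRY2 (277.89) and in ZFAND2A (277.84).

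CBFB (core binding factor beta) is the partner subunit of the RUNX transcription factors. It does not bind DNA by itself, and it raises the affinity of the RUNX protein for DNA and keeps that protein stable. RUNX2 is required for the formation of osteoblasts, RUNX1 for the formation of blood stem cells, and RUNX3 acts in T cells and sensory neurons. All of them recognise the same core through the Runt domain, and any of them can pair with CBFB. The RUNX core was counted here as TGTGGT or its reverse complement ACCACA. The related hexamer TGCGGT was not counted as a core unless stated. With it added, the share of members with a match within 100 bp of the midpoint was 43.1% instead of 33.4%. Neither RUNX1 nor RUNX3 was immunoprecipitated in these libraries.

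The following windows show what the members looked like at sequence level: the best-scoring members with a motif within 100 bp of the midpoint, a pair of members in tandem repeats, and a member inside the gene of another RUNX protein. Each is the 201 bases around the peak midpoint on the plus strand of GRCh37 (hg19). Capitals mark the RUNX core (TGTGGT or ACCACA) or an AP-1 site (TGANTCA), and in the BRSK2 window the related hexamer TGCGGT. The windows are chr1:210407204-210407404 in an intron of SERTAD4, chr9:127458510-127458710 in an intron of NR6A1, chr21:46406155-46406355 between genes near LINC00163, chr1:178063681-178063881 at a coding exon of RASAL2, chr5:176298818-176299018 in an intron of UNC5A, chr11:1452876-1453076 in an intron of BRSK2, and chr21:36767197-36767397 in an intron of RUNX1.
SERTAD4 intron: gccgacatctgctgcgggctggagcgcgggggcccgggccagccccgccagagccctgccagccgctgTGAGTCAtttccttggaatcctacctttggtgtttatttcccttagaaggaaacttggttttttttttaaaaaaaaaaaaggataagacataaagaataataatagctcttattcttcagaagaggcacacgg
NR6A1 intron: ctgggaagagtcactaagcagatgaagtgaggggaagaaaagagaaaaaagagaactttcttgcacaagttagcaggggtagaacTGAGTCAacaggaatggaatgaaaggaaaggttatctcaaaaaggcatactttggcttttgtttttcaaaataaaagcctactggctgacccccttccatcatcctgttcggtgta
near LINC00163: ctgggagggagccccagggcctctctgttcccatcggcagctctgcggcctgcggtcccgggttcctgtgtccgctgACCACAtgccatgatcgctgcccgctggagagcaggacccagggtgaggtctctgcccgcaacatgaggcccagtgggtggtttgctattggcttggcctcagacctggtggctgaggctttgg
RASAL2 coding exon: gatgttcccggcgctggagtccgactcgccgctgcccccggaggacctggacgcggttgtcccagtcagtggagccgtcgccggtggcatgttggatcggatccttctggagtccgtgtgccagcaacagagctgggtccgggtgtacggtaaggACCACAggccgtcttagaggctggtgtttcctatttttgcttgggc
UNC5A intron: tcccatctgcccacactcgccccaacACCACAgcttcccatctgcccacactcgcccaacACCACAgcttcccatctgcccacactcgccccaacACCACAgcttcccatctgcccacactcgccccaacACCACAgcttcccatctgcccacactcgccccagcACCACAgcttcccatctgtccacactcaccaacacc
BRSK2 intron: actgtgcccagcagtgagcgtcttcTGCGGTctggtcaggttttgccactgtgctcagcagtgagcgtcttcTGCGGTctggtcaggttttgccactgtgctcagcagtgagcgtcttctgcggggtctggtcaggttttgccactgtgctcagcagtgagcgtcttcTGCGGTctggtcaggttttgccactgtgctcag
RUNX1 intron: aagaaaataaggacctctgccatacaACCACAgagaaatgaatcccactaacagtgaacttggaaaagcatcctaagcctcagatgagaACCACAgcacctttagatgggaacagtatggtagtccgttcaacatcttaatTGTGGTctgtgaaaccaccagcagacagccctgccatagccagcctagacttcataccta

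The member with the highest score, 1472, lay in an intron of SERTAD4 and held 1 AP-1 site and no RUNX core in the window, although 3 cores lay elsewhere in its 2086 bp. The member in NR6A1, the gene of an orphan nuclear receptor, scored 1036 and also had 1 AP-1 site and no core in the window. The member near LINC00163 scored 928 and the one at the start of RASAL2, the gene of a Ras GTPase-activating protein, scored 908. Each of the latter had 1 core in the window. Within RUNX1, the window of the member with a score of 548 held 3 cores in 201 bases.

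As a description of the rule, the median score of the members was 350 (quartiles 305 to 423), and that of strong peaks with RUNX2 was 490 (364 to 737). Of 608 strong peaks over 1000, 7 were members, and 215 peaks scored above the top member.

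The 20 members with the highest scores reached from 699 to 1472. Of these, 12 were promoter peaks (midpoint within 5 kb of a transcription start site, TSS), 6 were in gene bodies and 2 were distal. Their distance to the nearest RUNX2 peak had a median of 52930 bp, from 303 to 204162 bp. Below SERTAD4 stood a peak near the noncoding gene LINC00552 (chr13:114454002-114456687) with a score of 1321. Next was a peak in an intron of BRSK2 (chr11:1450866-1455086), a brain-enriched kinase, with 1266. NR6A1 (chr9:127457390-127459830) with 1036 and an intron of ARG1 (chr6:131850135-131853030), the arginase of the urea cycle, with 1018 came next. SAMD11 (chr1:875359-880737) had 1012, an intron shared by the annotated genes TMA7B and GRAP2 (chr22:40356973-40359271) had 1010, and the start of PRKCD (chr3:53188619-53189958), the gene of protein kinase C delta, had 987. The PRKCD member held no RUNX core anywhere in its 1340 bp. The SAMD11 member lay 303 bp from a RUNX2 peak with a score of 120, so it stood apart from RUNX2 only by that gap.

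Further down the same 20 were members in a UTR of IGF2R (765), the receptor that clears IGF2, near the zinc finger gene CASZ1 (734), in UNC5A (711), a netrin receptor, near CCIN (709), a sperm head protein, and in MYL3 (699), a muscle myosin light chain. A peak near DAND5 and NFIX scored 796 and held 12 RUNX cores. Noncoding genes hosted or neighboured others, namely ENSG00000262898 (870), ENSG00000226767 (842), ENSG00000282381 (776) and ENSG00000278869 (701). Of the 20 members, 19 held a core somewhere in the peak and 7 held one within 100 bp of the midpoint.

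Some of the best-scoring members were tandem repeats, a feature found after the windows were read. Repetition was measured as the share of a peak's 20-base words that occur more than once in that peak. In the BRSK2 member this share was 83.0%, the spacing of the commonest word was 47 bp, and the peak held TGCGGT 68 times but TGTGGT only 1 time. In the UNC5A member it was 63.8%, with a spacing of 34 bp and 73 RUNX cores in 3637 bp. The LINC00552 member had a share of 31.6% with a spacing of 40 bp, and a member near LINC01983 and MUC4 (score 354) one of 42.1% with 17 cores. The RNA5S7 (373) and RNA5S9 (282) members on chromosome 1 covered the tandem array of 5S ribosomal RNA genes and repeated every 2220 and 2242 bp. Members with at least 25% of such words numbered 9 of 856, or 1.05% (0.482 to 1.99). The measure counts exact copies only, so repeats whose copies differ can escape it. For example, the members in BRD9 held 48 and 17 RUNX cores and were not among the 9. Whether they are inexact repeats was not tested. The share was 0.980% (0.716 to 1.31) for strong peaks with RUNX2 and 0.344% (0.262 to 0.444) for weaker peaks without it. The intervals of the members and of strong peaks with RUNX2 overlapped. At the top of each group such peaks were fewer among the members. They were 3 of the best 20 (15%, 3.21 to 37.9) against 8 of the best 20 with RUNX2 (40%, 19.1 to 63.9). Of the best 50 they were 6% (1.25 to 16.5) against 22% (11.5 to 36.0), again with overlapping intervals. Those sets differ in score, with medians of 889 for the best 20 members and 3100 for the best 20 with RUNX2. The latter median is, as rounded, the highest score in the lists, so the score hardly separates the upper part of that set. By score the order was the reverse, also with overlapping intervals. At 500 or more, 3.57% (0.982 to 8.89) of members were such peaks, against 1.56% (1.09 to 2.17) with RUNX2. Under 500 the values were 0.672% (0.219 to 1.56) and 0.424% (0.204 to 0.779). How reads from such arrays were mapped was not tested.

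The members lay at promoters more often than strong peaks with RUNX2 and weaker peaks without it, while their interval overlapped that of weaker peaks with RUNX2. Promoters held 50.9% of the members (436 peaks, 47.5 to 54.3), against 43.8% (42.4 to 45.3) of strong peaks with RUNX2, 46.3% (45.6 to 47.1) of weaker peaks without it and 47.1% (45.6 to 48.5) of weaker peaks with it. Gene bodies held 31.3% (28.2 to 34.5) against 35.4% (34.0 to 36.8) of strong peaks with RUNX2. Distal sites, within 25 kb of a transcript, held 13.9% against 13.0%. The remaining sites, farther than that from any transcript, held 3.86% (2.67 to 5.37) against 7.73% (6.97 to 8.54).

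Within 1 kb of a TSS the order of the groups was the same. Of the members, 32.5% (29.3 to 35.7) had their midpoint within 1 kb of a TSS, against 23.5% (22.3 to 24.8) of strong peaks with RUNX2, 25.8% (25.1 to 26.4) of weaker peaks without it and 29.6% (28.2 to 30.9) of weaker peaks with it, an interval that overlapped that of the members. For TSSs of protein-coding genes the values were 27.7%, 18.2%, 20.7% and 24.2%. Coding exons held 4.67% (3.36 to 6.31) of the member midpoints against 2.24% (1.83 to 2.71), introns 58.1% against 58.8%, and intergenic sequence 27.1% against 29.5%. Windows with the composition of a CpG island (GC above 50% and an observed to expected CpG ratio above 0.6) made up 21.5% (18.8 to 24.4) of the members, against 12.7% (11.8 to 13.7), 16.0% (15.4 to 16.5) and 18.8% (17.7 to 20) in the same order, of which the last interval overlapped. These are counts from 1 list, and the difference was not tested. In each of 6 bands of the CBFB score, divided at 300, 350, 400, 500 and 700, the members had the higher promoter share, the higher share within 1 kb of a TSS and the higher median window GC of the strong peaks. The promoter intervals overlapped in every band, for example 46.1% (38.4 to 54.0) against 44.4% (40.2 to 48.6) from 350 to 400. The top band held only 19 members.

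**Figure D1:**
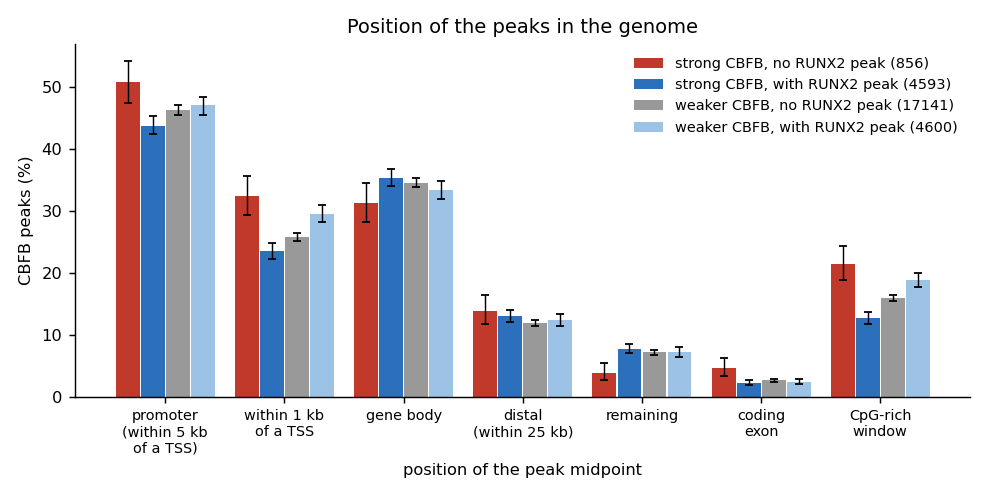
Share of peaks (vertical axis, %) by the position of their midpoint (horizontal axis) for 856 members, 4593 strong peaks with RUNX2, 17141 weaker peaks without RUNX2 and 4600 weaker peaks with it. Bars are shares and error bars exact 95% binomial intervals; the members stand at 32.5% within 1 kb of a TSS and 21.5% in CpG-rich windows, with error bars that reach those of weaker peaks with RUNX2 (29.6% and 18.8%), and at 3.86% in the remaining class.

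The 10 highest-scoring members within 1 kb of a protein-coding TSS scored from 632 to 1012. After SAMD11, PRKCD, RASAL2 and IGF2R came RXRA (687), the retinoid X receptor that pairs with many nuclear receptors, NID2 (669), a basement membrane nidogen, and TLE1 (659), a Groucho corepressor that RUNX proteins recruit. GP1BA and CHRNE, a platelet receptor gene and an acetylcholine receptor gene, shared a member (652). VPS37C (651), a subunit of the endosomal sorting machinery, and FRA10AC1 (632) completed the set. A RUNX core lay within 100 bp of the midpoint in 1 of these 10 and a GC box (GGGCGG) in 4. The PRKCD, TLE1 and FRA10AC1 members held no core in the whole peak.

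The members were about as wide as strong peaks with RUNX2 overall and wider at a given score. Their median width was 1642 bp (quartiles 1307 to 2224, highest 7259), against 1614 bp with RUNX2 and 1052 bp for weaker peaks without it. Within score bands the members were wider in 6 of 6, for example 1543 against 1341 bp in the lowest band and 1918 against 1614 bp from 500 to 700. Width rises with the score that chose the members, so it is not independent of the rule. Of the members, 85 (9.93%) were 3 kb or wider.

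The widest member, 7259 bp, covered ACTG1, the gene of cytoplasmic gamma actin, with a score of 417. The RNA5S7 member was 6630 bp, and a member at the start of F3, the tissue factor gene, was 6570 bp. A pair of members, 6500 and 6291 bp wide, lay 651 bp apart at the start of KCNN3, a calcium-activated potassium channel. All of the 5 widest were promoter peaks. Among the narrowest members, 1 of 838 bp lay at the start of AP1S2, an adaptor protein subunit. Others lay near ENSG00000259388 (842 bp), in MYO16 (865 bp) and near MCTP2 (866 bp).

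Most members lay more than 10 kb from the nearest RUNX2 peak. The median distance between edges was 36045 bp (quartiles 11161 and 117471 bp), against 47314 bp for weaker CBFB peaks without RUNX2. Under 1 kb lay 30 members (3.50%, 2.38 to 4.97), from 1 to 10 kb 167 (19.5%), from 10 to 100 kb 420 (49.1%) and at 100 kb or more 239 (27.9%, 24.9 to 31.1). For the weaker peaks the shares were 3.01%, 16.6%, 48.8% and 31.5%. The distributions largely overlapped, and the rule fixed only that the distance was above 0.

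**Figure D2:**
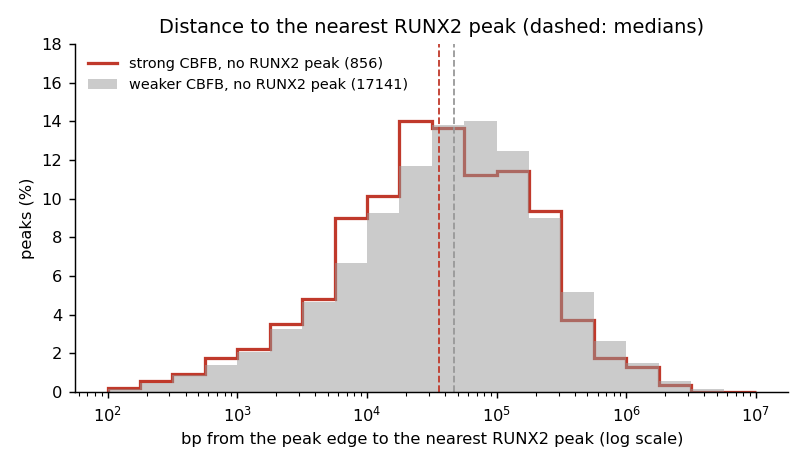
Distance from the edge of each peak to the nearest RUNX2 peak (horizontal axis, bp on a log scale) as a share of peaks (vertical axis, %), for 856 members (red line) and 17141 weaker CBFB peaks without RUNX2 (grey area). Dashed lines mark the medians, 36045 and 47314 bp; the members lie slightly nearer to RUNX2 peaks.

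The nearest member lay 166 bp from a RUNX2 peak, in an intron of NF2, whose product merlin acts upstream of the Hippo kinases. Others lay 167 bp away near RNY1P8, 201 bp away in ITGB5, the integrin beta 5 subunit, 207 bp away in LGR6, an R-spondin receptor, and 223 bp away in TAF2, a TFIID subunit. The RUNX2 peaks beside these 5 members scored from 64.7 at ITGB5 to 273 at LGR6. At the far end, a member at TCF24 lay 2067724 bp from any RUNX2 peak, one in NEDD4L, a ubiquitin ligase, 1786878 bp and one in MYO16, a myosin, 1598641 bp. The other 2 of the 5 farthest members were on the X chromosome, 1821894 and 1608570 bp away. The RUNX core share rose with the distance class, from 13.3% (3.76 to 30.7) of the 30 members under 1 kb through 29.3% (22.6 to 36.9) and 35.0% (30.4 to 39.8) to 36.0% (29.9 to 42.4) at 100 kb or more, with overlapping intervals between neighbouring classes. In weaker peaks without RUNX2 it was 36.0%, 39.6%, 40.5% and 46.1% in the same order. Median width fell across the same classes from 2056 through 1751 and 1656 to 1531 bp, and its part in that order was not tested.

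Another CBFB peak lay within 1 kb of 115 members (13.4%, 11.2 to 15.9), against 12.8% (11.9 to 13.8) of strong peaks with RUNX2. The next CBFB peak on the chromosome overlapped RUNX2 for 306 members (35.7%, 32.5 to 39.1) and for 35.2% (33.8 to 36.6) of strong peaks with RUNX2. Both pairs of intervals overlapped.

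By chromosome, the members' share of the strong peaks ran from 9.40% (14 of 149) on chromosome 16 to 25% (17 of 68) on the X chromosome. The interval excluded the overall 15.7% for 1 of 23 chromosomes, number 16 (5.23 to 15.3). The 856 members fell in 627 windows of 1 Mb, of which 460 held 1 member and 5 held 5 members, the most seen. No member held unknown bases or 10 or more telomere repeats.

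The RUNX core was present near the midpoint of the members more often than in their flanks, and less often than in strong peaks with RUNX2. Within 100 bp of the midpoint, 286 of 856 members had it, or 33.4% (30.3 to 36.7). In 1542 flank windows 2 kb away from the midpoints and clear of every peak, 15.7% (13.9 to 17.6) had it, a ratio of 2.13. Strong peaks with RUNX2 had it in 41.4% (40 to 42.9), and weaker peaks without RUNX2 in 42.0% (41.3 to 42.7). The ratio over their own flanks was 3.05 in both of these groups. Both strands were searched and overlap with other motifs was allowed. The longer form TGTGGTT stood in 18.9% (16.4 to 21.7) of the member windows against 2.72% (1.97 to 3.66) of their flanks, a ratio of 6.95, and in 22.1% (20.9 to 23.3) of the windows of strong peaks with RUNX2. Over the whole peak, 87.7% of the members and 90.9% of strong peaks with RUNX2 held a core.

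The core was denser within 150 bp of the midpoint than farther out in both groups, without a clear maximum in the innermost 50 bp. In the first 50 bp from the midpoint the members had 2.46 ± 0.170 cores per kb (counting SE), against 2.94 ± 0.0801 in strong peaks with RUNX2. From 50 to 100 bp the values were 2.24 ± 0.162 and 2.99 ± 0.0807. From 100 to 150 bp they were 2.46 ± 0.170 and 2.60 ± 0.0753, and from 150 to 200 bp 2.08 ± 0.156 and 2.05 ± 0.0668. From 950 to 1000 bp, which lies outside many peaks, they were 0.911 ± 0.103 and 0.749 ± 0.0404. The densities of the groups were farther apart than their errors in the innermost 100 bp, and not from 150 to 200 bp.

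**Figure D3:**
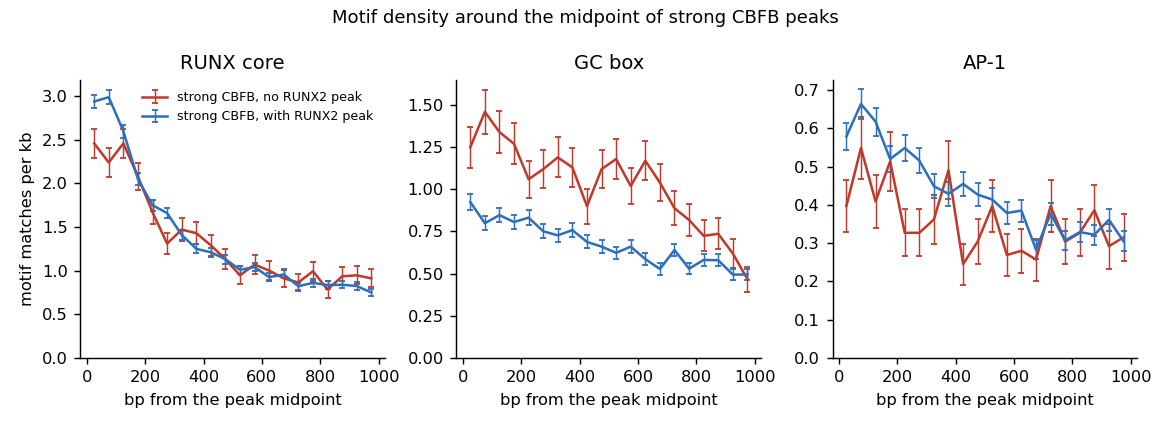
Matches of the RUNX core (TGTGGT), the GC box (GGGCGG) and the AP-1 site (TGANTCA) per kb of sequence (vertical axes, each starting at 0) in 50-bp steps from the peak midpoint (horizontal axes, bp), for 856 members (red) and 4593 strong peaks with RUNX2 (blue). Error bars are counting standard errors; the members are lower for the RUNX core in the first 50 bp (2.46 against 2.94 per kb) and higher for the GC box there (1.25 against 0.925 per kb).

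The GC box, the site of SP and KLF factors, went the other way. It was found in 18.5% (15.9 to 21.2) of the member windows, 12.4% (11.5 to 13.4) of those with RUNX2 and 13.2% (12.7 to 13.7) of the weaker ones, with 5.19% in the members' flanks. By class of window GC the intervals of members and strong peaks with RUNX2 overlapped in all 4 classes, with 4.55% against 2.53% at 40 to 50%, 7.42% against 11.5% at 50 to 60% and 50% against 41.6% at 60% or more. At promoters the values were 29.6% (25.3 to 34.1) against 21.1% (19.3 to 22.9). The AP-1 site, bound by FOS and JUN dimers, was in 9.35% (7.48 to 11.5) of the members and 11.1% (10.2 to 12.1) of strong peaks with RUNX2, intervals that overlap, with 5.71% in the members' flanks. Of the panel of 20 motifs, the intervals of members and strong peaks with RUNX2 stood apart for the RUNX core, the GC box, C/EBP (TTGCNNAA, 6.66% against 9.58%) and NFY (CCAAT, 18.3% against 22.5%). C/EBP and NFY were both lower in the members, where neither exceeded its share in the flanks (8.17% and 22.1%). In the flanks of strong peaks with RUNX2 they stood at 9.22% and 23.3%. ETS, TEAD, CTCF, E-box, STAT and SOX motifs, among others, had overlapping intervals. No motif of the panel was present in 100 members (11.7%, 9.61 to 14.0), against 9.45% (8.62 to 10.3).

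Among all hexamers, counted without a panel, the largest deficit of the members was for the RUNX core itself, 8.02 percentage points, and the next was TGGAAA (13.4% against 18.4%). The largest excess was for GCCGCC (18.2% against 9.95%), followed by CCGCCG (13.8% against 6.18%) and GCCCGC (16.5% against 9.04%), all with CpG. The most enriched hexamer without CpG was CCAGGC (32.0% against 26.0%).

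Members with and without a core in the window were unlike in position. The 286 with it had a median width of 1392 bp, a median window GC of 49.3% and 39.2% (33.5 to 45.1) at promoters. The 570 without it had 1788 bp, 55.0% and 56.8% (52.7 to 61.0), and 465 of these held a core elsewhere in the peak. Their median scores were near each other, 355 and 345.

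The core share was also counted within classes of position, window GC and width, each taken singly. At promoters 25.7% (21.6 to 30.1) of members had the core against 33.3% (31.3 to 35.4) with RUNX2, in gene bodies 44% against 48.9%, and at distal sites 39.5% against 44.1%. At a window GC of 40 to 50% the values were 43.8% against 51.9%, at 50 to 60% 38.9% against 42.1%, and at 60% or more 17.4% against 21.6%. For peaks of 2000 bp or wider they were 20.0% against 23.8%. The members had the lower value in 11 of 11 such classes, and the intervals stood apart in 2 of them, promoters and the middle class of width, and in no GC class. They were also lower in all 6 score bands, for example 29.1% (22.5 to 36.3) against 41.7% (36.3 to 47.3) in the lowest, although at 700 and above the values were 36.8% (16.3 to 61.6) and 40.2% (37.4 to 42.9). The GC box was higher in 5 of 6 score bands, and the AP-1 site lower in 4 of 6.

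**Figure D4:**
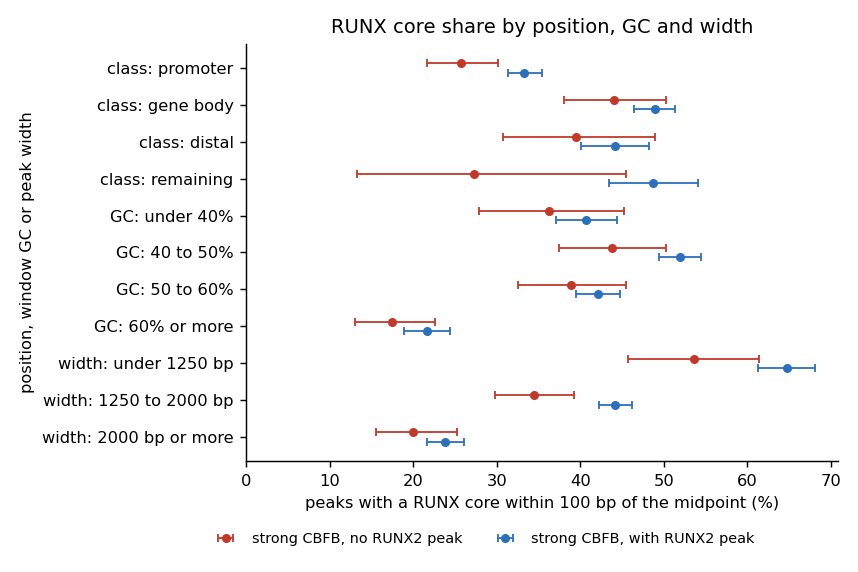
Share of peaks with a RUNX core within 100 bp of the midpoint (horizontal axis, %) within position classes, classes of window GC and classes of peak width (vertical axis), for members (red) and strong peaks with RUNX2 (blue). Points are shares and bars exact 95% binomial intervals; the members lie lower in all 11 classes, and most intervals overlap.

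Members often lay in genes that also carried RUNX2 peaks. Of the 856 members, 523 (61.1%) lay inside a protein-coding gene, and these hosts numbered 524 with overlapping genes counted, or 2.61% of 20090. Of the hosts, 300 (57.3%, 52.9 to 61.5) also had a RUNX2 peak inside the gene, against 21.2% of all protein-coding genes. Within 25 kb, 352 hosts (67.2%) had one. Host genes are long, with a median of 104841 bp against 27257 bp for all protein-coding genes and 93689 bp for hosts of strong peaks with RUNX2, and long genes hold more peaks of any kind. Counting the hosts and the nearest protein-coding gene of each member together, 832 genes were tagged by a member, and 405 of them (48.7%, 45.2 to 52.1) were also tagged by a strong peak with RUNX2, as were 15.6% of all protein-coding genes.

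SEPTIN9, a cytoskeletal septin, hosted 4 members and 15 RUNX2 peaks. The genes with 3 members were AHRR (the repressor of the aryl hydrocarbon receptor, with its readthrough PDCD6-AHRR), KAZN, RXRA, SH3BP4, TIAM2 (an exchange factor of Rac) and ZMIZ1, and these held from 2 to 12 RUNX2 peaks of their own. In all, 33 genes hosted 2 or more members, some of them overlapping genes that share the same peaks. ARHGAP29 hosted 2 members (scores 583 and 382) with 0 RUNX2 peaks in the gene or within 25 kb. BRD9, a subunit of a SWI/SNF complex, hosted 2 with 0 RUNX2 peaks in the gene and 1 within 25 kb. RUNX1, RUNX3, TCF7L2, ITGB5, KLF13, FNDC3B and RBMS3 were others with 2.

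The genes of the RUNX family and its corepressors were tagged by members in 7 of 26 cases (26.9%, 11.6 to 47.8), against 4.14% of all protein-coding genes, and by strong peaks with RUNX2 in 13 of 26, against 15.6% of all. RUNX1 hosted 2 members, 1 at chr21:36766625-36767970 (score 548, 42594 bp from a RUNX2 peak) and 1 with a score of 392.2, together with 22 RUNX2 peaks in the gene. RUNX3 was the host or nearest gene of 4 members, with scores of 405, 380, 304 and 284. The members with 405 and 304 lay inside the gene, and the others 119011 and 57781 bp from its start. Of the Groucho corepressors, TLE1 had a member at its start, TLE2 one in an intron (281), and TLE3 was only the nearest protein-coding gene of one (594), 230151 bp from its start. Among the histone deacetylases, HDAC9 (333) hosted a member and HDAC2 (317) had one 5359 bp from its start. TLE2 and HDAC9 were the 2 tagged by a member but by no strong peak with RUNX2.

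Genes of bone were tagged in smaller numbers by members than by the more numerous shared peaks, as were protein-coding genes at large. Of all protein-coding genes, 4.14% were tagged by a member and 15.6% by a strong peak with RUNX2. Of 24 osteoblast transcription factors, members tagged DLX5, ALX4 and ZEB2 (12.5%, 2.66 to 32.4), while strong peaks with RUNX2 tagged 12. ALX4 had its member in a coding exon 332 bp downstream of its start (score 283), and the best ZEB2 member scored 464 and had ZEB2 only as its nearest protein-coding gene, with its start 738294 bp away. The DLX5 member (313) lay 31418 bp from that gene. Of 37 bone matrix and mineral genes, members tagged 4 (10.8%, 3.03 to 25.4), namely COL12A1 (632), TNC (458), THBS2 (379) and OMD, and strong peaks with RUNX2 tagged 18. None of these 4 genes hosted its member. The best members lay 216941 bp from the start of COL12A1, 10235 bp from that of THBS2, 3273 bp from that of TNC, the gene of tenascin C, and 261 bp from that of OMD. The TNC member lay 1429 bp from a RUNX2 peak. The intervals of both lists include the 4.14% of all genes.

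Members tagged some genes of each signalling list, and strong peaks with RUNX2 tagged more. Beside these counts stand the shares of all protein-coding genes, 4.14% tagged by a member and 15.6% by a strong peak with RUNX2. Of 53 Wnt genes, members tagged 9 (17.0%, 8.07 to 29.8) and strong peaks with RUNX2 43.4%. The receptors ROR1 (555) and FZD5 (447) hosted theirs. CTNNB1 (421), which encodes beta-catenin, and the ligand gene WNT7B (407) were only the nearest protein-coding genes, with their starts 225494 and 69097 bp away. The TGF-beta and BMP list had 6 of 40 tagged (15%, 5.71 to 29.8), against 45% with RUNX2. The receptor TGFBR2 (473) and the ligand BMP7 (391) hosted members, and the best member of SKI (591), an inhibitor of SMAD proteins, lay 12742 bp from its start. The member at the receptor BMPR2 (453) lay 69 bp from the start of that gene and 56545 bp from a RUNX2 peak. Of 30 FGF, hedgehog and PTH genes, 5 were tagged (16.7%, 5.64 to 34.7), against 36.7% with RUNX2. FGF2 (431, 247885 bp from a RUNX2 peak), the hedgehog receptor PTCH1 (374) and SPRED2 (339) hosted members, and the transcription factor GLI3 (394) was 230045 bp from its member. The YAP-TEAD list had 3 of 17 (17.6%, 3.8 to 43.4), against 47.1% with RUNX2. The kinase LATS2 (322) and NF2 (306) hosted members, and the kinase STK4 (311) had one 227 bp from its start.

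Adhesion, axon guidance and nuclear receptor genes are given beside the same shares of all genes, 4.14% and 15.6%. Of 42 adhesion genes, members tagged 7 (16.7%, 6.97 to 31.4) and strong peaks with RUNX2 tagged 50%. ITGB5 (587) and SDC2 (442), a syndecan, hosted members. The integrin gene ITGA3 (622) had its start 27694 bp from its member and CADM1 (537) 343801 bp. Axon guidance and synapse genes had 10 of 61 (16.4%, 8.15 to 28.1), against 31.1% with RUNX2. BRSK2, UNC5A and DLGAP1 (565) were hosts, and PLXNA4 (430) lay 109739 bp from its member. Nuclear receptors had 5 of 38 (13.2%, 4.41 to 28.1), against 39.5% with RUNX2, and NR6A1, RXRA, RORA (530) and NR1H2 (331) were hosts. The genes of these last 3 lists are long, with medians from 89432 to 131269 bp. So are those of the RUNX list (94407 bp), the YAP-TEAD list (81347 bp) and the TGF-beta and BMP list (77020 bp). The Wnt list had a median of 47512 bp and the FGF, hedgehog and PTH list one of 25496 bp, against 27257 bp for all protein-coding genes. Both had intervals above 4.14%. The lists were chosen with earlier results of these data known, so a higher share than that of all genes is not read as a property of any list.

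The other lists had 2 tagged genes each, and all of their intervals include the 4.14% of all genes. Of 16 AP-1 factors (12.5%, 1.55 to 38.3), JUN (322) had a member 226 bp from its start and FOSL2 (370) one 35968 bp away. Of 20 ETS factors (10%, 1.23 to 31.7), ELF2 (494) had one 120 bp from its start and ELF3 (459) one 43960 bp away. Of 26 regulators of G1 (7.69%, 0.946 to 25.1), E2F2 (283) hosted a member and MYC (456) lay 17533 bp from its best one. Among 37 apoptosis and p53 genes (5.41%, 0.661 to 18.2), MDM2 (328) had a member 38 bp from a start and 105342 bp from a RUNX2 peak. BCL2L11 (381) was tagged only as the nearest protein-coding gene of members in another gene, 319999 bp away. Of 33 blood cell genes (6.06%, 0.743 to 20.2), ITGB2 (395) hosted a member and IFNG (318) lay 40512 bp from one.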

How the data were processed

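RUNX2 and CBFB were measured by ChIP-seq in SAOS2 cells, with 1 library per antibody and an input library for which no peak list was used here. The authors processed reads with CASAVA 1.8.2 and called peaks with MACS 1.4.1 on hg19, per the labels. Whether the input served as control, and the calling limit, are not given in the sources used here. Each deposited list gives chromosome, start, end, name and a score, and no fold or read count. The scores the authors deposited run from 50 to 3100 and were read as -10 times log10 of the MACS p-value, which depends on depth. The other deposited columns used were the start and end, made 1-based.

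Peaks were compared by overlap of 1 bp or more. Distances ran between edges. Midpoints were classed by GENCODE 44 (lifted to GRCh37) with the study's limits of 5 and 25 kb. Motifs were counted in 201-base windows of the GRCh37 sequence, with flanks 2 kb away that touched no peak. A gene was tagged when it hosted a member or was the nearest protein-coding gene. Named were the 20 best members by score, the 10 best within 1 kb of a protein-coding TSS, the 5 widest, narrowest, nearest and farthest, the 3 on either side of the limit, genes hosting 2 or more members and list genes, up to 4 per list. All 7 of the RUNX list, and the repeat members, were named after their values were seen. Of the 5 farthest, 2 are given by chromosome only. Of the 5 narrowest, 1 is not reported here, nor is 1 of the gene lists. The members and all 16 gene lists were chosen with earlier results of these data known. The measure of repeated sequence and the hexamer counts were added after the windows were read. Overlap, distance and motif steps were checked on simulated peaks and sequences. Analyses used Python 3.11.15, pandas 2.3.3, scipy 1.17.1, pysam 0.24.0 and samtools 1.23.1. Alternatives varied the score limit, the overlap rule, dense regions, the TSS definition, the motif window and the motif.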

Additional observations from a re-analysis of the deposited data

How the results depend on the processing

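Of 42 alternative values, 25 stayed within the interval of the value reported and 17 left it. With scores of 200 or more, the share of strong peaks without RUNX2 was 26.2%, the median width 1454.5 bp and the RUNX core share 38.2%. With 400 or more these were 7.91%, 1802.5 bp and, for AP-1, 7.25%. Without RUNX2 within 10 kb, the share of strong peaks was 12.1%. The promoter share was 32.5% within 1 kb of a TSS and 40% for protein-coding TSSs. The RUNX core was in 19.6% of members within 50 bp, 59.1% within 250 bp and 87.7% over the whole peak, in 18.9% as TGTGGTT and in 43.1% with TGCGGT added. AP-1 was in 3.74%, 19.7% and 46.3% of the same windows. The windows and definitions themselves differ in size, which bears on these shares.

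The RUNX core share of members stayed below that of strong peaks with RUNX2, and the promoter share above it, at every score limit tried and without dense 1 Mb windows, with differences of -3.78 to -8.02 and 4.73 to 8.41 percentage points. No paired analysis was possible because the 2 antibodies had a single library apiece. With no replicates and no reads in the lists, the precision of any score is unknown.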
